A study of Saccharomyces cerevisiae with 93 samples.

Results

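Proline and ammonium are nitrogen sources that budding yeast takes up and uses through a small set of permeases, enzymes and regulators, and 10 such genes are described here across strains, times of induction and compounds. They were taken by name from the array's probes. The proline genes were PUT1 (YLR142W), PUT2 (YHR037W), PUT3 (YKL015W) and PUT4 (YOR348C), and the permeases were GAP1 (YKR039W), MEP1 (YGR121C), MEP2 (YNL142W) and MEP3 (YPR138C). The repressor DAL80 (YKR034W) and the dehydrogenase GDH2 (YDL215C) completed the set. Each gene had 1 probe, so that the set holds 10 of the 6377 probes on the array.

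As background, proline is imported by the proline permease Put4 and by the broad amino acid permease Gap1, and is burned in mitochondria to glutamate by proline oxidase (Put1) and the next enzyme of the path, pyrroline-5-carboxylate dehydrogenase (Put2). Put3 is the proline-sensing activator of PUT1 and PUT2. Many genes for poor nitrogen sources are held down while a rich source is present, a control called nitrogen catabolite repression, in which the GATA factors Gln3 and Gat1 activate and Dal80 represses. The ammonium permeases Mep1, Mep2 and Mep3 and Gap1 are classical targets of this control. Gdh2 is the NAD-dependent glutamate dehydrogenase that frees ammonium from glutamate.

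RNA came from whole yeast cultures that express human alpha-synuclein, the protein that aggregates in Parkinson's disease, under galactose control, and each dual-colour array carried a pair of RNA samples. In the time course, cells with 2 copies of the alpha-synuclein gene, cells with 1 copy and cells with an empty vector were compared with each other at 0, 2, 4 and 6 h in galactose. A further series, all at 4 h, tested 6 related compounds: treated over untreated 2-copy cells, treated over untreated vector cells, and treated 2-copy over treated vector cells. No dose is stated in the labels. The label of 1 sample gives the 2-copy strain as W303 MATa with can1-100, trp1-1, ura3-1 and ade2-1 and mutated HIS3 and LEU2 genes, with PDR1 and PDR3, which control drug pumps, each replaced by kanMX, and with alpha-synuclein fused to green fluorescent protein on plasmids pRS304GAL and pRS306GAL. The genotypes of the 1-copy and vector strains, and the number of clones behind each strain, are not given, beyond that each starter culture grew from a single colony.

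Compounds 1 and 2 are benzoquinolinones that differ in an iodine against a bromine on the phenyl ring. Compounds 3 and 4 are dimethylquinolinones with a bromine and a fluorine on the phenyl ring, placed differently. Compound 5 is a dimethylquinolinone whose label names an ethyl group, and compound 6 is a single mirror form of a benzoquinolinone with a bromine on the ring system and an ethylphenyl group.

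Of 93 arrays, 83 were kept. The other 10 were left out by a rule on suspect arrays (arrays 2 and 3 of the strain comparison under compound 3, 4 or 6 and of compound 3 in 2-copy cells, and array 3 of compounds 4 and 6 there), and their mean correlation with the kept arrays of their group lay between 0.00762 and 0.214. This left 30 groups of 3 arrays, apart from 6 for 2-copy over vector at 4 h, 2 each for compounds 4 and 6 in 2-copy cells, and 1 each for compound 3 in 2-copy cells and for 2-copy over vector with compounds 3, 4 and 6. Groups of 1 array are given as values with no test. Kept arrays of a group correlated with a median r of 0.54 over all probes. The lowest were -0.41 between the 2 arrays of compound 6 in 2-copy cells and -0.32 between arrays 2 and 3 of compound 5 in vector cells, so that the direction of those arrays is not settled. With the sign turned on array 2 of each, the counts of members called were 14 for compounds in 2-copy cells and 6 for compounds in vector cells, as without. The plasmid marker TRP1 was higher in 2-copy than in vector cells at 2 h (1.56) and 4 h (1.26), against 0.36 at 0 h and 0.08 at 6 h, while the other marker, URA3, was lower in 2-copy than in vector cells at the 4 times (-1.69 to -0.91). No probe measured alpha-synuclein itself.

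All values are log2 ratios of the first-named sample over the second, so that 1 stands for a doubling, and are given as mean ± SD over arrays. The array gives no level in 1 strain alone, and levels of different genes cannot be compared. A gene is called changed where limma's moderated test, two-sided and adjusted over all probes of a comparison (Benjamini-Hochberg), gave an adjusted p under 0.05. In RNA from whole cultures, a change in every cell and a change in a share of the cells cannot be told apart.

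**Figure D1:**
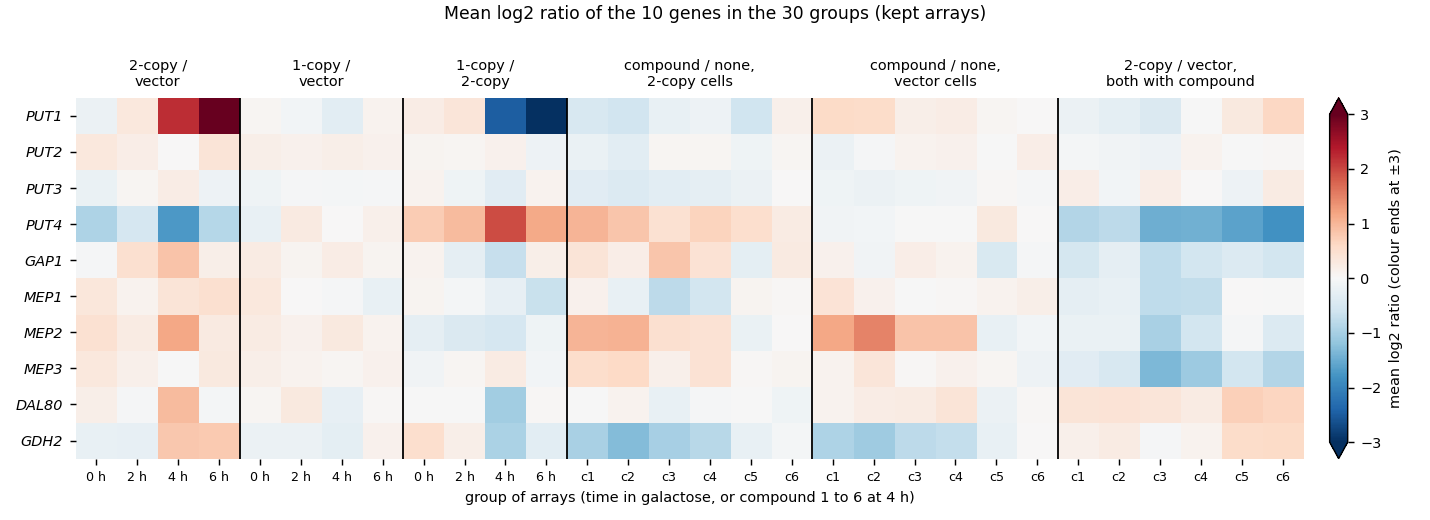
Mean log2 ratio of the 10 genes (rows) in the 30 groups of kept arrays (columns, by strain pair and time or by compound 1 to 6 at 4 h), red for higher and blue for lower in the first-named sample, with colours ending at 3 either way. PUT1 is deepest red in 2-copy over vector at 4 and 6 h (2.21 and 3.57), PUT4 is blue in every 2-copy over vector column, and GDH2 is blue in both cell types with compounds 1 to 4.

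Most members differed at 4 h between 2-copy and vector cells, where PUT1 was 4.64-fold higher and PUT4 was at 0.305 of the vector level. MEP2, DAL80, GAP1, GDH2, MEP1 and PUT3 were higher as well. Thus 8 of the 10 genes were called, 7 higher and 1 lower, in a comparison in which 61.7% of all probes were called. The median of the 10 genes was 0.60, against -0.000117 over all probes.

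For proline oxidase, the 6 arrays of PUT1 at 4 h ran from 1.10 over a median of 2.26 to 3.23, with a mean of 2.21 ± 0.744 (adjusted p = 6.46e-17). Every array was above 0, and array 1 was the lowest. PUT4, the proline permease, ran the other way, from -2.33 over a median of -1.83 to -1.06, with a mean of -1.71 ± 0.48 (adjusted p = 2.92e-18). PUT3, the activator, moved little but on every array, from 0.13 to 0.31 (0.22 ± 0.0699, adjusted p = 0.00601). PUT2, the enzyme after proline oxidase, took both signs, from -0.15 to 0.21, with a mean of 0.01 and a 95% interval of -0.15 to 0.17 (adjusted p = 0.911).

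Among the transporters at 4 h, the ammonium permease gene MEP2 ran from 0.73 to 1.71 (1.16 ± 0.443, adjusted p = 2.31e-09). Its arrays fell into separate ranges, 0.73 to 0.83 on arrays 1 to 3 and 1.36 to 1.71 on arrays 4 to 6. GAP1 ran from 0.21 over a median of 0.80 to 1.58 (0.85 ± 0.475, adjusted p = 9.6e-05). MEP1 was between 0.40 and 0.58 on arrays 2 to 6 and -0.06 on array 1 (mean 0.38 ± 0.228, adjusted p = 0.000616). MEP3, a close relative of MEP1, spread around 0, from -0.39 to 0.29, with a mean of -0.01 (adjusted p = 0.965). Probe sequences were not analysed here, and cross-hybridisation between MEP1 and MEP3 was not tested.

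DAL80, the GATA repressor and itself a gene under nitrogen control, ran from 0.60 to 1.29 (0.95 ± 0.252, adjusted p = 6.79e-08). GDH2 ran from 0.58 to 1.21 (0.81 ± 0.247, adjusted p = 4.06e-08). Neither gene had an array below 0. With arrays 4 to 6 left out, PUT3 (0.20, adjusted p = 0.114) and MEP1 (0.29, adjusted p = 0.0765) were not called. With a dye term, GAP1 (0.39, adjusted p = 0.244) and MEP1 (0.18, adjusted p = 0.203) were not called. The dye coefficients themselves were -0.17 for GAP1 and 0.06 for MEP1 (adjusted p = 0.897 and 0.923). That fit also made ratios measured directly equal those added up from other arrays, so these losses are no measure of dye alone.

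Before induction, at 0 h, 2 of the 10 genes were already called, against 14.8% of all probes. PUT4 was at -1.35, -1.07 and -0.33 on the 3 arrays (-0.92 ± 0.529, adjusted p = 0.000136), below 0 on each. PUT2 was at 0.36, 0.08 and 0.53 (0.32 ± 0.228, adjusted p = 0.0464), and this call was lost under 7 of 9 alternatives, with adjusted p = 0.255 without replicate 1 and 0.492 without replicate 3. At 2 h only PUT4 was called, against 12.2% of all probes, at -0.45, -0.46 and -0.56 (-0.49 ± 0.0611, adjusted p = 0.04997). This p lies next to the threshold, and the call was lost under 5 of 9 alternatives, among them leaving out replicate 1, 2 or 3 (adjusted p = 0.132, 0.178 and 0.25).

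At 6 h, 5 of the 10 genes were called, 4 higher and 1 lower, against 42.8% of all probes. PUT1 was at 3.76, 3.50 and 3.44, which gave 3.57 ± 0.17 (adjusted p = 2.06e-18), an 11.9-fold difference and the highest mean of any member in any group. PUT2 was now above 0 on all arrays, at 0.42, 0.49 and 0.24 (mean 0.38, adjusted p = 0.0051, or 0.0653 without replicate 1). PUT4 was at -1.06, -1.08 and -0.45 (-0.86 ± 0.356, adjusted p = 4.66e-05). MEP1 lay within 0.45 to 0.51 (0.49, adjusted p = 0.00303), and GDH2 was spread more widely, at 0.09, 1.23 and 1.03 (0.78, adjusted p = 0.000137). MEP2 (0.28), GAP1 (0.19) and DAL80 (-0.07), all called at 4 h, were not called at 6 h, and array 3 of DAL80 at -0.91 lay apart from 0.33 and 0.38.

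**Figure D2:**
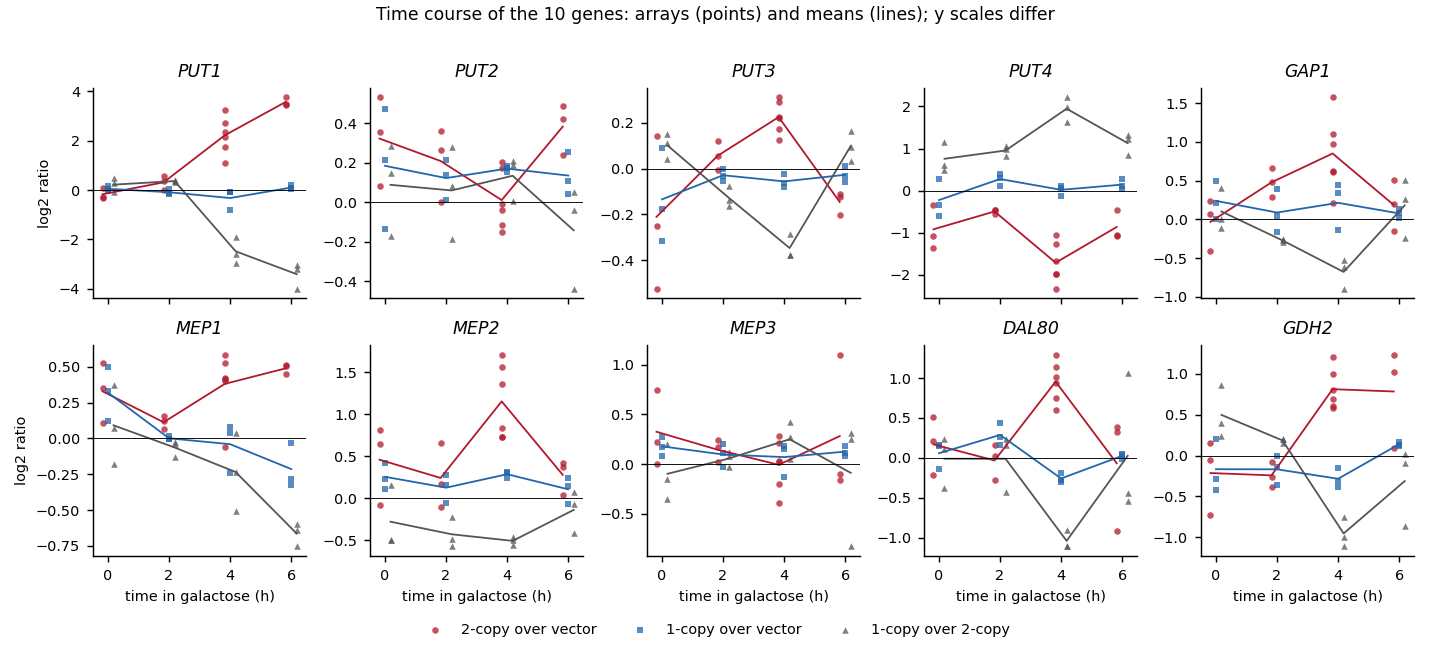
Log2 ratios of each gene by time in galactose (h), with kept arrays as points and group means joined by lines, for 2-copy over vector (circles), 1-copy over vector (squares) and 1-copy over 2-copy (triangles); y scales differ between panels. PUT1 climbs to 3.57 in 2-copy over vector while 1-copy over vector stays between -0.81 and 0.19 on all arrays, and MEP2 and DAL80 peak at 4 h.

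The change with time was tested as the difference between 2-copy over vector means. From 0 to 2 h no member changed (5.63% of all probes did; 0 members had an unadjusted p under 0.05). From 0 to 4 h 7 members changed, against 40.4% of all probes. PUT1 rose by 2.38 (SE 0.297, adjusted p = 1.98e-09), GDH2 by 1.03, GAP1 by 0.88, DAL80 by 0.79, MEP2 by 0.70 and PUT3 by 0.44, while PUT4 fell by 0.79 (adjusted p = 0.00183). The arrays of the 2 times did not overlap for PUT1, DAL80 and GDH2 and overlapped for the other 4 genes. Overlap was not counted over all probes, and its absence is likely among members that passed the test.

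From 0 to 6 h PUT1 rose by 3.74 (adjusted p = 1.22e-12) and GDH2 by 1.00 (adjusted p = 0.00115), the 2 members called, against 25.6% of all probes. From 4 to 6 h 6 members changed, against 33.1% of all probes. PUT1 rose further by 1.36 (SE 0.297, adjusted p = 0.000249), PUT2 by 0.37 and PUT4 by 0.85, the last back towards its difference at 0 h. DAL80 fell by 1.02 (adjusted p = 0.000906), MEP2 by 0.88 and PUT3 by 0.37. Arrays of the 2 times did not overlap for these members except PUT4, again with no count over all probes. Of these changes with time, 4 h minus 0 h stayed called under all 15 alternatives for PUT1 and GDH2, under 9 of 15 for GAP1 and under 6 of 15 for MEP2. Single replicates ended the 4 h minus 0 h call of PUT3 (replicate 1, 0.30 without it), PUT4 (replicate 3, -0.59), GAP1 (replicate 2 or 5, 0.74 without either), DAL80 (replicate 1 or 3, 0.79 and 0.56) and MEP2 (any of replicates 3 to 6, 0.51 to 0.66). They ended the 6 h minus 4 h call of PUT2 (replicate 1, 3, 4, 5 or 6, 0.34 to 0.48), PUT3 (replicate 1, -0.36), MEP2 (replicate 2, -0.84) and DAL80 (replicate 3, -0.56). With arrays 1 to 3 alone at 4 h, MEP2 was not called for 4 h minus 0 h (0.31, adjusted p = 0.467) or 6 h minus 4 h (-0.49, adjusted p = 0.244). Nor was GAP1 for 4 h minus 0 h (0.68), or PUT2 (0.26) and PUT3 (-0.34) for 6 h minus 4 h. With each array scaled by its median absolute deviation, 4 of the 15 changes with time were called, those of PUT1 and the 4 h minus 0 h change of GDH2. PUT4 then stood at -0.12 for 4 h minus 0 h and 0.51 for 6 h minus 4 h.

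A single copy of alpha-synuclein gave no call among the 10 genes at any time in the fit used throughout. Of the 40 tests at the 4 times, 6 were called with array weights and 1 with scaling by median absolute deviation. Calls over all probes grew there too, at 4 h from 41 to 1350 and 720. Against vector cells the shares of all probes called were 2.98% at 0 h, 5.76% at 2 h, 0.643% at 4 h and 0.8% at 6 h. At an unadjusted p under 0.05 limma gave 1 member at 0 h, MEP1, and 0 at each of the later times. PUT1 was at -0.81, -0.09 and -0.07 at 4 h and at 0.08, 0.19 and 0.04 at 6 h, far from the 2-copy arrays. PUT4 was at -0.12, 0.07 and 0.10 at 4 h, with a 95% interval of its mean of -0.33 to 0.37. MEP2 was above 0 on all 3 arrays at 4 h (0.30, 0.32 and 0.25), with an interval of -0.14 to 0.72. The 2-copy mean of 1.16 lay above it but has its own spread, with its lowest array at 0.73. Setting them side by side is no test between the strains.

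With 1-copy and 2-copy RNA on the same array, the difference between the strains was measured directly. At 0 h and at 2 h PUT4 was the member called, higher in 1-copy cells by 0.76 (SE 0.174, adjusted p = 0.00596) and 0.95 (adjusted p = 6.65e-05), against 4.5% and 11.9% of all probes. The 0 h call was lost without replicate 1 (0.56) or replicate 3 (0.83). At 4 h 7 members were called, against 48% of all probes. PUT1 was at -1.88, -2.61 and -2.95 (-2.48 ± 0.544, adjusted p = 1.71e-12) and PUT4 at 2.22, 1.98 and 1.64 (1.95 ± 0.293, adjusted p = 8.87e-14), each on 1 side of 0 on every array. DAL80 (-1.04), GDH2 (-0.95), GAP1 (-0.68), MEP2 (-0.51) and PUT3 (-0.35) were lower in 1-copy cells on every array too. The MEP2 call (adjusted p = 0.0455) was lost without any of the 3 replicates (-0.53 to -0.48), that of GAP1 without replicate 2 (-0.71) or 3 (-0.57) and that of PUT3 without replicate 1 (-0.33). At 6 h PUT1 (-3.41 ± 0.513), PUT4 (1.13 ± 0.249) and MEP1 (-0.66) were called, against 39.8% of all probes.

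The strain arrays form closed loops, since 1-copy over 2-copy can also be added up from the arrays against vector. For PUT1 the direct value and the sum differed by -0.0029 to 0.76 over the 4 times, and for PUT4 by 0.06 to 0.22. For the other members the differences lay between -0.33 and 0.45, where the median size over all probes was 0.0941 to 0.149. These comparisons are of the same strains, and whether their arrays shared cultures is not given, so the values are only set side by side.

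Other nitrogen genes were counted from 6 lists of 53 genes in all. At 4 h in 2-copy over vector, 18 were higher and 16 lower, with a median of 0.09 over the 53 genes and -0.000117 over all probes. That is 64.2% of the 53 genes, near the 61.7% of all probes called, so the count sets these genes apart from no others. Of 13 genes for allantoin, urea, arginine and GABA use, 6 were higher and 0 lower, which at 46.2% is a smaller share than over all probes. DAL4, the allantoin permease, was at 1.47, CAR2, of arginine breakdown, at 1.02, UGA1, of GABA breakdown, at 0.88, and DUR1,2, the urea amidolyase, at 0.84. Of 4 genes of ammonia assimilation, GLN1, glutamine synthetase, was higher (0.90), GDH3 was higher (0.57) and GLT1, glutamate synthase, was lower (-0.71). All 3 genes of proline synthesis were lower, PRO1 by -0.32, PRO2 by -0.31 and PRO3 by -0.32. Of 19 other amino acid and peptide permeases, 10 were lower, led by PTR2 (-1.13) and TAT1 (-1.04), and 3 were higher, led by MUP1 (0.78) and MUP3 (0.78). Among 7 regulators, 4 were higher, led by UGA3 (0.64), GAT1 (0.34) and GLN3 (0.29), and DAL81 (-0.31) was lower, and of 7 genes of permease sorting and TORC1 signalling 3 were higher, led by AMU1 (0.52), and RSP5 (-0.29) was lower.

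At 6 h 10 of the 53 genes were higher and 18 lower, or 52.8% called against 42.8% of all probes. The arginine enzymes CAR1 (1.60) and CAR2 (1.04), GAT1 (0.77) and DUR1,2 (0.77) were the highest called, and GDH3 (-1.66), GLT1 (-0.96), GDH1 (-0.87), DIP5 (-0.86), DAL2 (-0.82) and PRO3 (-0.73) were among the lowest. In 1-copy over vector cells 1, 4, 1 and 1 of the 53 genes were called at 0, 2, 4 and 6 h, or 1.89%, 7.55%, 1.89% and 1.89%, against 2.98%, 5.76%, 0.643% and 0.8% of all probes.

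The 6 compounds were compared with no compound at 4 h, and GDH2 and MEP2 were the members called in both cell types. GDH2 was lower with compounds 1 and 2 by 0.92 to 1.30 in size in 2-copy and in vector cells, and MEP2 was higher by 1.03 to 1.49. PUT4 and MEP3 rose and PUT3 fell in 2-copy cells with compounds 1 and 2 and were not called in vector cells, where PUT3 was at -0.12 and -0.19. Of these genes, PUT4 alone passed the direct test between the cell types given below. No member was called with compound 5 or compound 6 in either cell type.

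With compound 1 in 2-copy cells, 5 members were called, 3 higher and 2 lower, against 37% of all probes. PUT4 was at 1.41, 0.83 and 0.80 (1.02 ± 0.345, adjusted p = 4.53e-06), MEP2 at 1.07, 1.13 and 0.88 (1.03, adjusted p = 0.000124) and MEP3 at 0.39, 0.46 and 0.72 (0.52, adjusted p = 0.0155). GDH2 was at -0.80, -0.97 and -1.17 (-0.98, adjusted p = 5.32e-06) and PUT3 at -0.24, -0.27 and -0.53 (-0.35, adjusted p = 0.00537). Each of these 5 had 1 sign on its 3 arrays. The MEP3 call was lost without replicate 2 (0.55) or 3 (0.42) and the PUT3 call without replicate 1 (-0.40), and both were lost with scaling by median absolute deviation (0.37 and -0.25). PUT1 was at -0.07, -0.55 and -0.85, and its mean of -0.49 did not pass (adjusted p = 0.107).

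With compound 2 in 2-copy cells, 6 members were called, against 37% of all probes. GDH2 was at -1.18, -1.47 and -1.24 (-1.30 ± 0.156, adjusted p = 1.06e-08), MEP2 at 1.15, 0.81 and 1.18 (1.05, adjusted p = 8.66e-05) and PUT4 at 1.35, 0.41 and 0.73 (0.83, adjusted p = 0.000109). MEP3 (0.59) was higher, and PUT3 (-0.42) and PUT2 (-0.33) were lower, PUT2 mainly through array 2 at -0.78 beside -0.11 and -0.08. Without that array PUT2 was at -0.10 and was not called, and MEP3 was not called without replicate 1 (0.43). With scaling by median absolute deviation PUT2 (-0.22), PUT3 (-0.29) and MEP3 (0.39) were not called. PUT1 was at -0.05, -0.53 and -1.13 (mean -0.57, adjusted p = 0.058).

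Compound 4 in 2-copy cells kept 2 arrays and had 3 members called, against 13.1% of all probes. GDH2 was at -1.28 and -0.38 (-0.83, adjusted p = 0.00355), PUT4 at 0.33 and 1.02 (0.67, adjusted p = 0.0251) and MEP1 at -0.65 and -0.46 (-0.55, adjusted p = 0.019). Without array 1, GDH2 (-0.38) and MEP1 (-0.46) were not called, and without array 2, PUT4 (0.33) and MEP1 (-0.65) were not called. The single kept array of compound 3 in 2-copy cells gave GDH2 at -0.99, MEP1 at -0.77, GAP1 at 0.83, MEP2 at 0.48 and PUT4 at 0.45, with no replicate. With compound 5, 0 members were called against 2.12% of all probes, while PUT1 (-0.68, -0.87 and -0.23) and PUT4 (0.59, 0.09 and 0.80) had 1 sign on all arrays and an unadjusted p under 0.05. With compound 6, 0 members were called against 0.0157% of all probes, and 0 had an unadjusted p under 0.05.

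In vector cells, compound 1 changed 2 members, against 5.27% of all probes. MEP2 was at 1.64, 0.62 and 1.22 (1.16 ± 0.511, adjusted p = 0.000488) and GDH2 at -0.73, -1.26 and -0.77 (-0.92, adjusted p = 0.000476, or 0.126 without replicate 2). Compound 2 changed the same 2 genes, against 2.15% of all probes. MEP2 was at 1.52, 1.47 and 1.47, the tightest triplet of the called members (1.49 ± 0.0305, adjusted p = 9.21e-06), and GDH2 at -0.98, -1.39 and -0.84 (-1.07, adjusted p = 4.16e-05). In fits to the arrays of each comparison alone, none of these calls was kept. The adjusted p was then 0.579 for both genes with compound 1, and 0.0787 for MEP2 and 0.249 for GDH2 with compound 2. Among vector arrays of compounds 1, 2 and 5, those of the same number but different compounds correlated at a median r of 0.458. Those of the same compound correlated at 0.113, so the compounds are not independent of each other.

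GDH2 was also the 1 member called with compound 3 (-0.67, -1.01 and -0.66, adjusted p = 0.0133) and with compound 4 (-1.01, -0.31 and -0.84, adjusted p = 0.025) in vector cells, against 0.345% and 0.392% of all probes. Both calls were lost when any 1 replicate was left out, with means of -0.84 to -0.66 for compound 3 and -0.92 to -0.57 for compound 4. MEP2 was above 0 on every array with compound 3 (0.97, 0.39 and 1.18, adjusted p = 0.0545) and compound 4 (0.73, 0.58 and 1.23, adjusted p = 0.0537), just short of the threshold. With compounds 5 and 6 in vector cells 0 members were called, against 0.768% and 0.0157% of all probes, and 0 had an unadjusted p under 0.05. The MEP2 and GDH2 means with compound 6 were -0.09 and 0.01, with 95% intervals of -0.52 to 0.35 and -0.33 to 0.35.

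**Figure D3:**
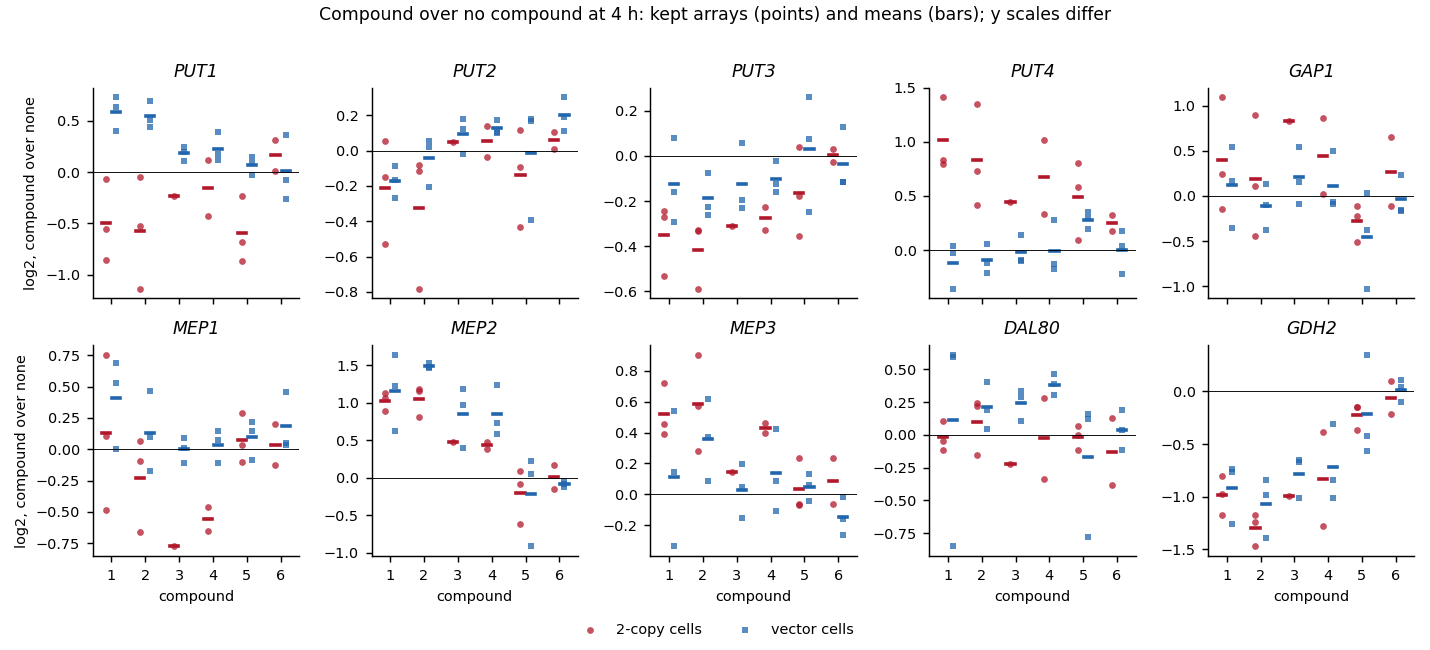
Log2 ratio of compound over no compound at 4 h for each gene by compound, kept arrays as points and means as bars, in 2-copy cells (circles) and vector cells (squares); y scales differ between panels. MEP2 lies above 0 and GDH2 below 0 on every array of compounds 1 to 4 in both cell types, whereas PUT4 lies above 0 in 2-copy cells on every array of compounds 1 to 6 and around 0 in vector cells with compounds 1 to 4.

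Compounds were also compared in pairs at the shared time of 4 h, 10 pairs in 2-copy cells and 15 in vector cells, with p adjusted over all probes and pairs of a cell type together. Whether the doses matched is not given. In 2-copy cells 5 of 100 tests of members were called, against 2.64% of all tests. MEP2 was higher with compound 1 than with 5 by 1.23 (SE 0.305, adjusted p = 0.0121) and with compound 2 than with 5 by 1.25 (adjusted p = 0.0105). GDH2 was lower with compound 2 than with 5 by -1.07 (adjusted p = 0.00472) and than with 6 by -1.24 (adjusted p = 0.0036), and with compound 1 than with 6 by -0.92 (adjusted p = 0.0438). Arrays did not overlap in any of these 5 pairs, which is likely for pairs that passed the test and was not counted over all probes. Each call was lost without replicate 2, at 1.24 and 1.43 for MEP2 and -0.95, -0.99 and -0.77 for GDH2 in the order given. With scaling by median absolute deviation none of the 5 was called (adjusted p = 0.236 to 0.538). The MEP2 calls were also lost without replicate 1 (1.01 and 1.00), and that of GDH2 with compound 1 against 6 without replicate 3 (-0.83) or with the sign turned on array 2 of compound 6 (-0.82, adjusted p = 0.0574).

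Same-numbered arrays of compounds 1, 2 and 5 deviated together, and the replicate number was used as a block in fits to the compared arrays alone. There these pairs kept their calls, at adjusted p = 0.0363 and 0.0373 for MEP2 and 0.0197 for GDH2 with compound 2 against 5. In such fits without the block they were not called (adjusted p = 0.171, 0.173 and 0.130). GDH2 with compound 1 against 5 was at -0.76, with a 95% interval of -1.24 to -0.28. It passed in the block fit (adjusted p = 0.0374) and not in the fit to all kept arrays (0.0727), which differ in the arrays used as well.

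In vector cells 2 of 150 tests of members were called, against 0.0523% of all tests. Both were MEP2, higher with compound 2 than with 5 by 1.70 (SE 0.305, adjusted p = 0.00395) and than with 6 by 1.57 (adjusted p = 0.0131). With the replicate number as a block, in a fit to the compared arrays alone, the pair of compounds 2 and 5 had an adjusted p of 0.395 at the same size. In such a fit without the block, this pair had an adjusted p of 0.668. Its call was also lost without replicate 1 (1.91) or 2 (1.36) and with the sign turned on array 2 of compound 5 (1.09, adjusted p = 0.124). The call against compound 6 was lost without any of the 3 replicates (1.56 to 1.58).

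Compounds 1 and 2, which differ in their halogen, gave no call in either cell type. In 2-copy cells their difference was -0.02 for MEP2, with a 95% interval of -0.63 to 0.59, 0.31 for GDH2 (-0.17 to 0.79) and 0.18 for PUT4 (-0.31 to 0.68). Compounds 3 and 4, which place the halogens differently, gave no call in vector cells either. The benzoquinolinone compounds 1 and 2 against the dimethylquinolinone compound 4 in 2-copy cells differed by 0.60 (-0.08 to 1.28) and 0.62 (-0.07 to 1.30) for MEP2, which did not pass. Compound 5 minus compound 6, which is also a benzoquinolinone, came to 0.21 or less in size for MEP2 and GDH2 in 2-copy cells, at -0.21 (-0.89 to 0.47) and -0.16 (-0.70 to 0.38).

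Of the 53 other nitrogen genes, compound 1 in 2-copy cells raised 11 and lowered 11, and compound 2 raised 13 and lowered 9. Each is 41.5% of the 53 genes, near the 37% of all probes called with either compound. With compound 1 DAL4 (-1.22), GLN1 (-0.996) and UGA1 (-0.59) were lower and DIP5 (1.07), PTR2 (0.97), TAT1 (0.87) and GNP1 (0.78) higher. With compound 2 DAL4 (-1.20), MUP1 (-0.80) and GLN1 (-0.79) were lower and DIP5 (1.27), PTR2 (1.05), DAL3 (0.88) and BAP3 (0.81) higher. PRO1 and PRO3 were higher with both compounds, at 0.36 and 0.50 with compound 1 and at 0.31 and 0.61 with compound 2. Compound 4 raised 6 and lowered 2, or 15.1% against 13.1% of all probes, and with compounds 5 and 6 limma called 0 in 2-copy cells, against 2.12% and 0.0157%. In vector cells DAL2 was higher with compound 1 (0.53) and compound 2 (0.60), OPT2 with compound 2 (0.46) and compound 3 (0.47), and DAL82 was lower with compound 1 (-0.48). These are 3.77%, 3.77% and 1.89% of the 53 genes with compounds 1, 2 and 3, against 5.27%, 2.15% and 0.345% of all probes. Whether these arrays shared untreated cultures with the strain comparison at 4 h is not given, and no relation between the comparisons was tested.

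In the third layout, 2-copy cells were set against vector cells with the compound in both. PUT4 was lower in 2-copy cells on every kept array with every compound. With compound 1 it was at -0.80, -0.98 and -0.87 (-0.88 ± 0.0936, adjusted p = 0.000273) and was the 1 member called, against 9.94% of all probes. With compound 2 it was at -0.54, -1.19 and -0.59 (-0.77, adjusted p = 0.00197, or 0.258 without replicate 2), again the 1 member called, against 7.75%. With compound 5 it was at -1.77, -1.64 and -1.39 (-1.60 ± 0.194, adjusted p = 1.28e-10), and the single arrays of compounds 3, 4 and 6 gave -1.47, -1.45 and -1.80.

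Compound 5 had 3 more members called, against 32.5% of all probes. DAL80 was at 0.79, 0.73 and 0.64 (0.72, adjusted p = 0.00424), GDH2 at 0.33, 0.83 and 0.50 (0.56, adjusted p = 0.00817) and MEP3 at -1.14, -0.45 and -0.09 (-0.56, adjusted p = 0.0105). These 3 calls were lost without replicate 1 for DAL80 (0.68), without replicate 2 or 3 for GDH2 (0.42 and 0.58) and without replicate 1 or 2 for MEP3 (-0.27 and -0.61). PUT1, GAP1 and MEP2, called higher in 2-copy cells without compound, were not called with compound 1, 2 or 5. PUT1 was at -0.57, -0.40 and 0.45 with compound 1, at -0.42, -0.42 and -0.0035 with compound 2 and at -0.77, 0.08 and 1.58 with compound 5. In these groups array 3 was the highest for PUT1, GAP1 and MEP2, and each of these genes lay below 0 on array 1.

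**Figure D4:**
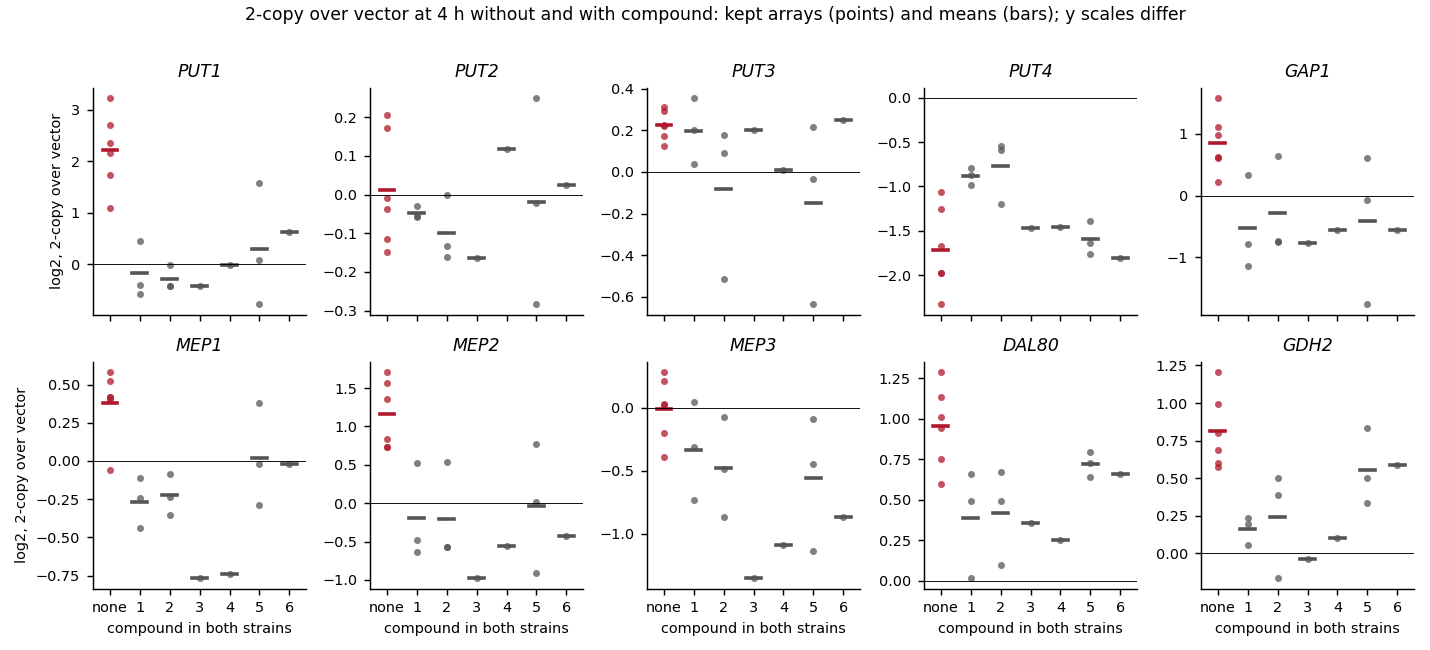
Log2 ratio of 2-copy over vector cells at 4 h for each gene, without compound (6 arrays) and with compounds 1 to 6 in both strains (3, 3, 1, 1, 3 and 1 kept arrays), arrays as points and means as bars; y scales differ between panels. PUT1 has a mean of 2.21 without compound and lies between -0.43 and 0.62 with compounds. Ratios added up from other arrays put PUT1 with compounds at 1.10 to 2.37, a gap whose cause was not tested. PUT4 stays below 0 on every array.

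The effect of a compound on the strain difference can be read from these arrays as the mean with compound minus the mean without. For compound 1, 6 members differed, against 22.9% of all probes. PUT1 was lower by -2.38 (SE 0.297, adjusted p = 3.22e-08), GAP1 by -1.38, MEP2 by -1.35, MEP1 by -0.65 and GDH2 by -0.65, and PUT4 was higher by 0.83 (adjusted p = 0.00317). For compound 2 the same 6 members differed, against 26.4% of all probes, PUT1 by -2.50 (adjusted p = 4.19e-09), MEP2 by -1.36, GAP1 by -1.13, MEP1 by -0.60, GDH2 by -0.57 and PUT4 by 0.94. For compound 5 PUT1 (-1.91, adjusted p = 2.15e-05), GAP1 (-1.26) and MEP2 (-1.20) differed, against 4.96% of all probes. With scaling by median absolute deviation, 2 of these 15 calls remained, those of PUT1 for compounds 1 and 2, and PUT4 stood at 0.05 and 0.16 for these compounds. With a dye term GAP1 was not called for compounds 1, 2 and 5 (-0.41, -0.23 and -0.36), GDH2 for compounds 1 and 2 (-0.35 and -0.36) or MEP2 for compound 5 (-0.44). The dye coefficient of that fit is shared by all arrays and cancels from a difference of group means. That fit also made direct ratios equal those added up from other arrays, so these losses are no measure of dye. For compound 1 the calls of PUT4 (replicate 1, 0.66), MEP1 (replicate 2, -0.55) and GDH2 (replicate 2 or 3, -0.60 and -0.59) rested on single replicates. So did those of PUT4 (replicate 1, 0.70), GAP1 (replicate 2, -0.95), MEP1 (replicate 2, -0.53) and GDH2 (replicate 2, 3 or 5, -0.57 to -0.37) for compound 2, and of GAP1 (replicate 1, -0.71) and MEP2 (replicate 1, -0.82) for compound 5. The 3 compounds share the 6 untreated arrays, so that their values are not independent of each other.

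The same question can be asked of other arrays, as the response to a compound in 2-copy cells minus the response in vector cells. There PUT1 and PUT4 alone were called, for compound 1 (17.4% of all probes) and compound 2 (15.8%). PUT1 differed by -1.08 (SE 0.344, adjusted p = 0.0218) and -1.11 (adjusted p = 0.0182), and PUT4 by 1.13 (adjusted p = 0.000687) and 0.92 (adjusted p = 0.00562). Their arrays did not overlap, which was not counted over all probes. The PUT1 calls were lost without replicate 2 (-0.97 and -1.15) or 3 (-0.99 and -0.76), and the PUT4 call of compound 2 without replicate 1 (0.65) or 3 (0.91). Both PUT4 calls were lost with scaling by median absolute deviation (0.74 and 0.69). For compounds 4, 5 and 6 0 members were called, against 2.32%, 0.0784% and 0% of all probes. At an unadjusted p under 0.05 limma gave 2, 0 and 0 members for these 3 compounds. With compound 1, GAP1 differed by 0.27 (95% interval -0.48 to 1.03) and MEP2 by -0.13 (-0.74 to 0.48), which do not reach the -1.38 and -1.35 of the first reading.

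The 2 readings thus gave different sizes for some genes and like sizes for others, and opposite signs for GAP1 with compound 1. On the second reading the interval of GAP1 spanned 0. Setting the direct ratio of 2-copy over vector with compound against the sum of the other arrays of the loop (the untreated strain ratio plus the response in 2-copy cells minus that in vector cells), GAP1 was short by -2.25 to -1.43 in all 6 loops, PUT1 by -2.23 to -1.25, MEP2 by -1.77 to -0.92 and MEP3 by -1.46 to -0.54. GDH2 (-0.64 to -0.15), MEP1 (-0.53 to -0.24) and DAL80 (-0.43 to -0.13) were below 0 in all 6 loops too, by less. For PUT2, PUT3 and PUT4 the difference stayed within -0.42 to 0.20. Over all probes its median size was 0.17 to 0.251, and the share of probes with a larger one was 0.0784% to 0.815% for GAP1, 0.204% to 0.831% for PUT1, 0.314% to 1.51% for MEP2 and 1.07% to 8.69% for MEP3. For PUT4 that share was 19.1% to 96.0%. The 6 loops share the 6 untreated strain arrays. For GDH2 with compound 1 the gap of -0.59 stands beside a called effect of -0.65 on the first reading and -0.06 on the other. What parts the loops was not tested. For GAP1, PUT1, MEP2, MEP3, GDH2 and MEP1 the size, and in part the sign, of the compound effect on the strain difference rests on which arrays are read.

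**Figure D5:**
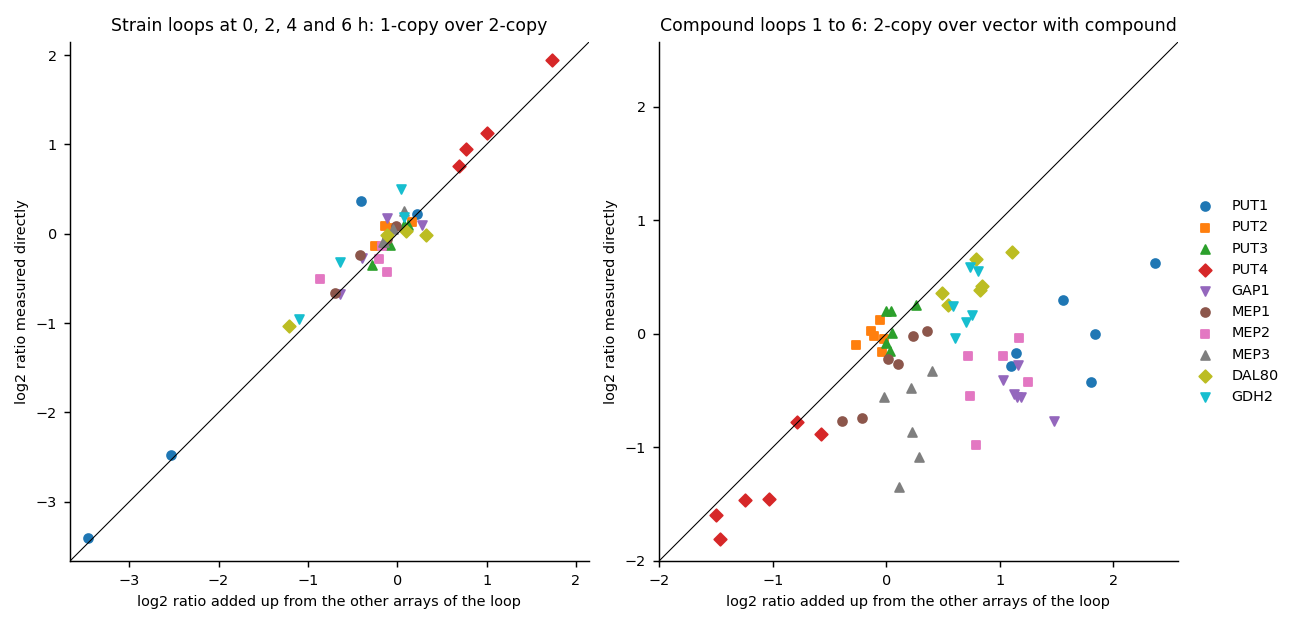
Log2 ratio measured directly (y) against the log2 ratio added up from the other arrays of the same loop (x) for the 10 genes, with the line of equality; left, 1-copy over 2-copy at 4 times, right, 2-copy over vector with each of 6 compounds. Strain loops lie within 0.45 of the line except PUT1 at 1 time (0.76), and in the compound loops PUT1, GAP1, MEP2 and MEP3 lie below it by 0.54 or more while PUT4 lies between 0.42 below and 0.01 above it.

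Across the 30 group means, the 10 genes did not move as 1 block. The highest Pearson r among them were 0.68 for PUT3 with GDH2, 0.66 for GAP1 with MEP2 and 0.66 for MEP2 with MEP3, and the lowest was -0.77 for PUT4 with DAL80. PUT1 and PUT2, the consecutive enzymes of proline breakdown, had an r of 0.37. Each member's nearest genes by r over the same groups were PDH1 (0.958) and ODC1 (0.951) for PUT4, ECM32 (0.923) and SWC4 (0.89) for PUT1, ARO10 (0.917) and NSE1 (0.915) for GDH2, and PTR2 (0.916) and SAT4 (0.914) for MEP3. For DAL80 they were TKL2 (0.867) and MOH1 (0.861), for PUT3 BNA5 (0.86) and SGT2 (0.858), and for GAP1 the amino acid permeases CAN1 (0.827) and AGP1 (0.764). For PUT2 they were RGD2 (0.79) and RPL15A (0.749), for MEP2 PRM7 (0.784) and BSC1 (0.781), and for MEP1 SLC1 (0.736) and POF1 (0.731). Group means share strains, untreated RNA and arrays of unequal spread, so that these values describe likeness over these groups and carry no test.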

How the data were processed

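The authors deposited a log2 ratio for every probe on every array. The submitters' processing notes name limma, with no version and no detail of background correction or normalisation. Raw intensities were not used here, so signal over background is unknown. Neither scale nor direction is stated, and each value was taken as the log2 ratio of the Cy5 channel (first-named sample) to the Cy3 channel (second-named sample). Per the labels, biological replicates were hybridised pair by pair to separate arrays, without a dye swap. The p-values rest on a spread for each probe that is shared by all groups, not on that of the compared cultures alone. Part of the same-numbered arrays deviated together, so arrays are not all independent. Any dye bias of a probe stays in its group means. Array medians lay between -0.0306 and 0.0214, array SDs between 0.126 and 0.731, and 0 values were missing.

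Probes were named by locus tag through RefSeq's gene table of the R64 assembly: 5644 matched as written, 196 after a hyphen was written and 537 did not match. Group means were estimated in 1 fit over the 83 kept arrays with limma 3.58.1 (lmFit and eBayes) in R 4.3.3, with 57.6 degrees of freedom. Tests were two-sided, on group means against 0 or on differences of group means, over all 6377 probes. A check on simulated data drew independent noise with the same spread of a probe on every array, as the fit assumes. It does not show how the tests hold on arrays of unequal spread that deviate together. Benjamini-Hochberg adjustment ran over the probes of a comparison, and over probes and pairs together for pairs of compounds, with a threshold of 0.05. A dye coefficient, added as an alternative, passed for 6 probes and for no member.

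Same-numbered arrays of different groups were checked for shared deviations. In 7 of 28 differences with 3 pairs, all pairs between compounds within a cell type, every correlation was over 0.1, and these are treated as paired by the data rather than by the labels. The alternatives were all 93 arrays, a dye term, scaling by median absolute deviation, subtraction of array medians, array weights, a fit to the compared arrays alone, arrays 1 to 3 or 4 to 6 of the 4 h group, a replicate block and leaving out each replicate number. Turning the sign of 2 arrays was chosen after seeing the data.

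The 10 genes, the 10 arrays left out and the lists of other nitrogen genes were chosen with earlier results of these data known. The genes named are the 10 members, the 2 genes most like each over the 30 group means and up to 4 called genes per list and comparison by size. The lists were proline synthesis, GATA and pathway regulators, use of allantoin, urea, arginine and GABA, ammonia assimilation, other amino acid and peptide permeases, and permease sorting with TORC1 nitrogen signalling.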

Additional observations from a re-analysis of the deposited data

Results flagged for a closer look

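MEP1 in 2-copy over vector at 4 h had 1 array far from the other 5, array 1 at -0.0611, where the others lay between 0.40 and 0.58. Chance flags about 1 in 20 groups of this kind.

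Of the tested differences between times, between strains and with against without compound, 34 member values passed. The pairs of compounds within a cell type, where 5 and 2 more passed, are described above. Between times, in 2-copy over vector, 4 h minus 0 h gave PUT1 2.38, GDH2 1.03, GAP1 0.88, DAL80 0.79, MEP2 0.70, PUT3 0.44 and PUT4 -0.79. The difference of 6 h minus 0 h gave PUT1 3.74 and GDH2 1.00. The difference of 6 h minus 4 h gave PUT1 1.36, PUT4 0.85, PUT2 0.37, PUT3 -0.37, MEP2 -0.88 and DAL80 -1.02.

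Between strains, the response to a compound in 2-copy minus vector cells gave PUT1 -1.08 and PUT4 1.13 for compound 1 and PUT1 -1.11 and PUT4 0.92 for compound 2. The strain ratio with minus without compound 1 gave PUT1 -2.38, GAP1 -1.38, MEP2 -1.35, GDH2 -0.65, MEP1 -0.65 and PUT4 0.83. With compound 2 it gave PUT1 -2.50, MEP2 -1.36, GAP1 -1.13, MEP1 -0.60, GDH2 -0.57 and PUT4 0.94, and with compound 5 PUT1 -1.91, GAP1 -1.26 and MEP2 -1.20. Values of the last kind come from loops that did not close for several members, for compounds 1 and 2 by -0.59 and -0.35 for GDH2 and by -0.37 and -0.24 for MEP1, and by more for PUT1, GAP1 and MEP2.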

How the results depend on the processing

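Across alternatives no call among the 10 genes turned its direction. The second reading of the compound effect, on which GAP1 with compound 1 took the other sign, is not among these alternatives. Of 95 calls, 93 were kept with array medians subtracted, 90 with all 93 arrays, 87 with array weights, 73 with a dye term, 60 in fits to the compared arrays alone and 48 with scaling by median absolute deviation. Counts of calls that moved by over 1.5 times were as follows. With scaling by median absolute deviation, 10 against 16 were called in 2-copy over vector, 1 against 0 in 1-copy over vector, 4 against 15 for changes between times, 9 against 14 for compounds in 2-copy cells, 13 against 6 in vector cells, 2 against 15 with minus without compound, 0 against 5 for pairs in 2-copy cells and 16 against 2 for pairs in vector cells. With array weights the counts were 6 in 1-copy over vector, 17 for compounds in vector cells, 10 against 6 for 2-copy over vector with compound, 7 against 4 for response differences, and 2 and 21 for pairs in 2-copy and vector cells. With a dye term, in the fit in which the loops close, they were 12 for response differences, 16 for pairs in 2-copy cells and 4 for pairs in vector cells. In fits to the compared arrays alone they were 7 for compounds in 2-copy cells, 2 in vector cells, 3 with compound, 2 for response differences, and 0 and 1 for pairs in 2-copy and vector cells. The cause was not tested. Calls over all probes moved with the setting too, as given above for 1-copy over vector at 4 h. Shares of all probes are not set beside these counts, which thus describe no trait of the 10 genes.

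With the replicate number as a block, in fits to the arrays compared, 14 of 41 calls were kept. The counts were 5 against 15 for changes between times, 0 against 4 for response differences, 7 against 15 with minus without compound, 6 against 5 for pairs in 2-copy cells and 0 against 2 for pairs in vector cells. In 7 of 28 differences with 3 pairs every same-number correlation was over 0.1, and over all differences the correlations ran from -0.257 to 0.759. Outside the 7, some arrays deviated together too, as in 6 h minus 4 h (0.43, 0.26 and 0.095). So did those of compound 2 minus 6 in 2-copy cells (0.45 and 0.35), which had 2 pairs. Others did not, as in 2 h minus 0 h (0.06, 0.02 and -0.07). Whether arrays outside the 7 share more than a number is not settled.

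Leaving out 1 replicate gave 13 to 16 calls in 2-copy over vector, 0 to 0 in 1-copy over vector, 9 to 10 in 1-copy over 2-copy, 10 to 14 for changes between times, 10 to 14 and 3 to 5 for compounds in 2-copy and vector cells, 3 to 7 with compound, 1 to 4 for response differences, 11 to 15 with minus without compound, and 0 to 5 and 0 to 1 for pairs in 2-copy and vector cells. A lone remaining array took its spread from all groups. With the sign turned on 2 arrays, 1 of 3 calls was kept. The number of arrays limits the precision, and signal over background is unknown.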
